A study of Mus musculus with 36 samples.

Results

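Hlf and 9 further genes of the circadian clock and its output (Dbp, Tef, Nfil3, Nr1d1, Nr1d2, Per1, Per2, Per3 and Cry2) were followed across 36 libraries of mouse pancreatic fibroblasts. They are 10 of the 39017 genes in the count table, taken by their symbols, and all 10 passed the filter on low counts. Hlf was picked for its fall in co-culture, so its values against mono-culture are given as a description, with no test. The other 9 were taken as members of the same clock circuit. They and the gene lists used below were chosen with earlier results of these data known. Counts of their calls beside the shares over all genes are therefore descriptive.

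The fibroblasts were of the C57BL/6 strain. In 8 groups of 4 libraries they had been co-cultured for 48 h with tumour cells carrying GFP, a green fluorescent protein, and were then separated from the tumour cells by flow sorting on that marker. The tumour cells were the clones E, H, K, M, N, T and V, or KPC1, a name that the labels do not explain. The remaining 4 libraries came from fibroblasts in mono-culture. Whether these also went through the sorter was not established here, so sorting is not separated from co-culture in contrasts with mono-culture. The titles number the co-culture libraries by replicate and the mono-culture libraries after all of them. Each tumour line is 1 clone or line, and the labels do not say whether the 4 libraries of a group came from separate cultures, so p-values measure only the spread between these libraries. The 32 co-culture libraries share the 48 h time. No culture time is given for the mono-culture libraries, and no clock hour of collection for any.

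The circadian clock is a feedback loop. CLOCK and ARNTL (also called BMAL1) activate genes that carry an E-box, among them the Per and Cry genes, whose proteins then repress CLOCK and ARNTL. The nuclear receptors encoded by Nr1d1 and Nr1d2 (REV-ERB alpha and beta) repress Arntl and other genes through the ROR element. Hlf, Dbp and Tef encode the PAR bZIP activators, which bind the D-box in output genes, and Nfil3 (E4BP4) encodes a repressor of the same element. Most tissues, fibroblasts in culture included, run this loop, but cells in a dish keep a common phase only after a synchronising stimulus.

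In the GENCODE M21 annotation of GRCm38 (the mm10 build of the files), Hlf (ENSMUSG00000003949) lies on the minus strand at chr11:90336536-90390895. Tef (ENSMUSG00000022389) lies at chr15:81802421-81826863 on the plus strand, Nfil3 (ENSMUSG00000056749) at chr13:52967209-52981073 on the minus strand, and Nr1d1 (ENSMUSG00000020889) at chr11:98767932-98775333 on the minus strand. Promoter windows from RefSeq (GRCm38.p6), from 250 bases before to 50 bases after a start, were found for 9 of the 10 genes and searched on both strands for the E-box (CACGTG), the D-box (TTATGTAA or TTACGTAA), the ROR element (AAAGGTCA, TTAGGTCA, ATAGGTCA or TAAGGTCA) and the CRE (TGACGTCA), the site of the CREB family. Per2 had no window in that table. The E-box letters stood in 7.15% of all 32851 windows, the D-box in 1.06%, the ROR element in 3.38% and the CRE in 1.79%. Hlf held a CRE at -9 to -2 from its start, and Per3 held 2 D-boxes, at -205 to -198 and at -158 to -151. Tef held an E-box in both of its windows, at -127 to -122 and at -138 to -133, and Per1 held an E-box in 1 of its 2 windows, at -166 to -161. The windows of Dbp, Nfil3, Nr1d1, Nr1d2 and Cry2 held none of these letters. Such matches describe the sequence and are not shown to be bound in these cells. The 250 bases before the start are shown for Hlf, for Tef (the downstream start), whose levels followed the order of Hlf across the lines, and for Per3, which differed in direction between lines, with the matched motif in capitals. Hlf is at chr11:90390918-90391167 (minus strand), Tef at chr15:81811164-81811413 (plus strand) and Per3 at chr4:151044666-151044915 (minus strand), each written 5′ to 3′ on the gene's own strand.
Hlf: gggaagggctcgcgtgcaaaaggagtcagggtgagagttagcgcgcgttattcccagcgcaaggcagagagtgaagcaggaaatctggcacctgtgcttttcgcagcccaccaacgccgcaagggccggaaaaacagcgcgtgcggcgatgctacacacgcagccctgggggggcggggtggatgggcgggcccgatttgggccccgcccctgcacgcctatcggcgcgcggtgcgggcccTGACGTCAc
Tef: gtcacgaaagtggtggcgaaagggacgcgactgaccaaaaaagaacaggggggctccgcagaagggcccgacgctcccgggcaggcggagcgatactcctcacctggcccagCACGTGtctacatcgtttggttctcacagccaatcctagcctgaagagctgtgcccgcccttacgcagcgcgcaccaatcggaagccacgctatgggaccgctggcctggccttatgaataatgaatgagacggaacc
Per3: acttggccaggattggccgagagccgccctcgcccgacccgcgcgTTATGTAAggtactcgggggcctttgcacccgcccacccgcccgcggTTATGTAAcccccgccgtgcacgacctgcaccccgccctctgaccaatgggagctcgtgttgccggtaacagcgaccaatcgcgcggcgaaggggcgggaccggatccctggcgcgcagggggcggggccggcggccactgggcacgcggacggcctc

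Library totals ranged from 12532122 to 21985538 counts. Of the mono-culture libraries, replicate 4 stood apart, with 2.16% of its counts in mitochondrial genes against 3.01 to 4.74% in the other 35 libraries. Over 9 fibroblast markers the summed level was 10884 to 32040 CPM (counts scaled to a common library size, with TMM factors). Col1a1 alone held 3707 to 12586 CPM. The lowest values were those of Lum (0.105 to 12.4 CPM), Dcn (31.1 to 515 CPM) and Pdgfra (40.6 to 374 CPM). The 4 leukocyte markers summed to 2.33 to 4.40 CPM in mono-culture and to 0.963 to 15.2 CPM in co-culture, highest with clone T (11.5 to 15.2 CPM). Nearly all of this was Cd68, which was present in every library, whereas Ptprc did not exceed 0.162 CPM and was at 0 in mono-culture. Epcam of epithelial cells was at 0 counts in 23 of the 32 co-culture libraries. The titles of the mono-culture libraries carry the letters PSC. Of the 3 stellate cell markers, Des was present in every library (3.58 to 4.18 CPM in mono-culture, 0.967 to 6.19 CPM over all), while Gfap did not exceed 0.310 CPM and Lrat was at 0 in 34 of 36 libraries. Epithelial keratins were present in co-culture: the 10 epithelial markers summed to 2.74 to 4.18 CPM in mono-culture and to 20.5 to 800 CPM in co-culture. Krt18 reached 429 CPM, Krt8 227 CPM, Krt19 131 CPM and Cdh1 44.1 CPM. Other markers of the list stayed near 0: Cldn4 was at 0 counts in 30 and Esrp1 in 27 of the 32 co-culture libraries. Cldn7 did not exceed 0.455 CPM, and Epcam had its highest value, 0.495 CPM, in mono-culture. In bulk RNA, fewer cells that express a gene and less RNA in each cell cannot be told apart.

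Hlf was the lowest of the 10 genes per length in mono-culture, at 2.18 ± 0.427 RPKM (reads per kilobase of transcript, scaled to the library total; SD, n = 4), against 33 ± 2.01 RPKM for Tef and 17.2 ± 2.26 RPKM for Dbp, the other PAR bZIP genes. Between them lay Nr1d2 at 15.2, Nr1d1 at 12.1, Per1 at 8.95, Nfil3 at 6.93, Cry2 at 5.62, Per3 at 5.32 and Per2 at 2.97 RPKM. The Per and Cry genes were thus within a few-fold of each other per length, and Hlf was near Per2 at the bottom of the range.

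Hlf was lower in co-culture with each of the 8 tumour lines, and the size of the difference varied widely between them. The mono-culture libraries held 14.4, 11.7, 8.97 and 12.1 CPM of Hlf in replicates 1 to 4 (11.8 ± 2.21 CPM, SD, n = 4). All 32 co-culture libraries lay below the lowest of these, at 0 to 5.16 CPM with a median of 0.50 CPM. The highest levels were kept with clones K and M. With clone K the libraries held 3.82, 4.81, 2.43 and 4.23 CPM (3.82 ± 1.01 CPM, SD, n = 4). With clone M they held 5.09, 5.16, 2.18 and 2.24 CPM (3.67 ± 1.68 CPM, SD, n = 4). The libraries of clone M fell into 2 high and 2 low ones, and those of clone K lay between these. With clone E they held 1.15, 1.97, 1.1 and 1.4 CPM (1.41 ± 0.396 CPM, SD, n = 4). With clone N they held 1.19, 1.3, 0.336 and 0.567 CPM (0.847 ± 0.469 CPM, SD, n = 4). Clones E and N thus overlapped, and both lay below every library of clones K and M. With clone T the libraries held 0.0562, 0.604, 0.273 and 0.387 CPM, and those of KPC1 held 0.158, 0.362, 0.246 and 0.285 CPM. With clone V they held 0.153, 0.433, 0.218 and 0 CPM. The libraries of clone H held 0.120, 0.202, 0.0516 and 0.349 CPM. These 4 lines overlapped with each other throughout and held 1 to 11 counts of Hlf in each library but clone V replicate 4, which held 0. A count of 0 in that library allows up to 0.179 CPM (3 counts, counting error only).

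**Figure D1:**
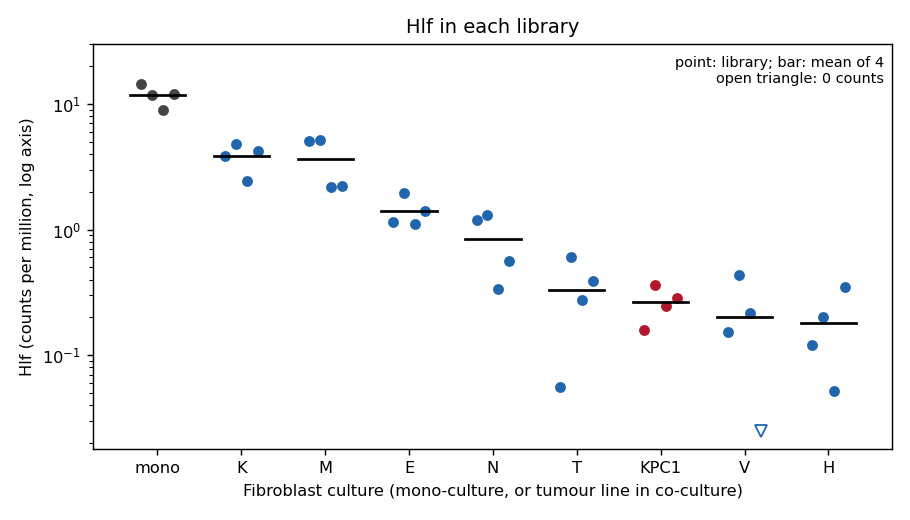
Hlf in each of the 36 libraries, in CPM on a log axis, for mono-culture (grey), the 7 clones (blue) and KPC1 (red), with lines in the order of their mean. Mono-culture sits at 8.97 to 14.4 CPM, and all 32 co-culture libraries lie below it, with the 1 library at 0 drawn as an open triangle.

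Summed over the 4 libraries, the mono-culture held 856 counts of Hlf. Scaled to effective library size, the level in mono-culture was 3.16-fold that with clone K (95% interval from exact counting, 2.77 to 3.62), 3.24-fold that with clone M (2.80 to 3.76), 8.42-fold that with clone E (6.87 to 10.4) and 13.6-fold that with clone N (10.5 to 17.8). It was 36.2-fold that with clone T (24.1 to 56.8), 46.2-fold that with KPC1 (29 to 78.3), 56.6-fold that with clone V (34.6 to 99.5) and 63.0-fold that with clone H (38.0 to 113). All of these intervals cover counting error only and leave out the spread between libraries, so they are no test of the fall. The last 4 ratios rest on 15 to 24 counts in co-culture, and their intervals overlap. The fitted log2 fold change for the mean of the 7 clones was -3.85 (SE 0.241).

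The order of the lines was clone K, clone M, clone E, clone N, clone T, KPC1, clone V and clone H, from the highest mean level of Hlf to the lowest. Differences between co-cultures were not used to pick Hlf and were tested with edgeR's quasi-likelihood test, adjusted by Benjamini-Hochberg over the 14439 genes tested. Of the 7 pairs of neighbours in the order, clone M and clone E differed (log2 difference 1.38, SE 0.408, adjusted p = 0.027). Clone N and clone T did not pass (log2 difference 1.36, SE 0.514, adjusted p = 0.092), and neither did the other 5 pairs, with adjusted p from 0.53 to 0.97. Over all 28 pairs of co-cultures Hlf was called in 19, whereas a pair called a median of 27.8% of all genes (0.388 to 57.9%). Hlf was higher with clone K than with clones E, N, T, V and H and KPC1, in pairs that called 11.5%, 21.7%, 41.4%, 54.8%, 49.8% and 56.1% of all genes. It was likewise higher with clone M than with those 6 lines, in pairs that called 11.5%, 19.2%, 40.5%, 57.9%, 51.1% and 55.5%. Clone E was above clones T, V and H and KPC1, in pairs that called 10.6%, 42.2%, 31.6% and 40.2%. Clone N was above clones V and H and KPC1, in pairs that called 43.5%, 32.3% and 35.3%. The 9 pairs without a call were clones K and M (2.24% of all genes called), clones E and N (1.27%), clones N and T (8.53%), and the 6 pairs among clones H, T and V and KPC1, of which clones T and V called 24% and the others 0.388% (H and V), 7.58% (H and T), 2.89% (H and KPC1), 5.36% (T and KPC1) and 10.7% (V and KPC1). The pairs in which Hlf was not called were thus mostly pairs in which few genes were. The largest difference was clone K over clone H, at 4.30 on the log2 scale (SE 0.511, adjusted p = 7.9e-08). Hlf differed among the 7 clones in the F-test on 6 contrasts (adjusted p = 5.2e-10), and so did 67.5% of all genes. KPC1 was below the mean of the clones (log2 difference -1.61, SE 0.456, adjusted p = 0.0053), and 41.1% of all genes were called in that comparison (22.3% higher and 18.8% lower).

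The levels of other cell types and of dividing cells also differed between lines. Epithelial markers summed to 20.5 to 305 CPM with clone K, 54.6 to 526 CPM with clone M, 263 to 498 CPM with clone E and 440 to 677 CPM with clone N. They summed to 288 to 800 CPM with clone T, 186 to 590 CPM with KPC1, 32.4 to 217 CPM with clone V and 66.1 to 241 CPM with clone H. Fibroblast markers summed to 21239 to 23092 CPM in mono-culture and reached higher with clones K (19921 to 30144 CPM) and M (21650 to 32040 CPM), the lines with the highest Hlf. In the lines with the lowest Hlf they summed to 16532 to 18288 CPM (clone T), 12754 to 16408 CPM (KPC1), 10884 to 21582 CPM (clone V) and 15104 to 19176 CPM (clone H). This sum was on average lower in the 4 lines with little Hlf than in the other 4. Single markers went both ways against mono-culture. Of the 9, 3 were higher and 6 lower with clone T (25% and 24.7% of all genes) and with KPC1 (30.5% and 28.5%). With clone H 2 were higher and 5 lower (27.8% and 26.4%), and with clone V 1 and 5 (29.4% and 28.9%). The 8 proliferation genes summed to 1223 to 1554 CPM in mono-culture, 728 to 1182 CPM for clone K and 1634 to 2198 CPM for clone H. They summed to 1090 to 1391 CPM with clone M, 1176 to 1377 CPM with clone E and 966 to 1604 CPM with clone N. With clone T the sum was 1256 to 1565 CPM, with KPC1 1457 to 1961 CPM and with clone V 1486 to 1962 CPM. The part of epithelial cells, of the fibroblast markers and of proliferation in the level of Hlf was not tested.

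Of the other 9 clock genes, 6 passed the test of the 7 clonal co-cultures, taken as a mean, against mono-culture: 5 were higher and 1 was lower, where 49.2% of all genes were called (24.3% higher and 24.9% lower). Nr1d1, Nfil3, Per1, Cry2 and Nr1d2 rose, Tef fell, and Dbp, Per2 and Per3 did not pass. The median log2 fold change of the 9 genes was 0.22, against 0.0058 over all genes tested. In the single lines, 1 gene was higher and 1 lower in co-culture with clone E, where 16.5% and 15.5% of all genes were called in those directions and 32% in either. Clone K had 1 higher and 0 lower (all genes 10.4% and 8.69%, or 19.1% in either direction), as did clone M (12.2% and 10.8%, or 23%). Clone N had 3 higher and 1 lower (19.7% and 19.2%, or 39.0%). Clone H had 5 higher and 1 lower (27.8% and 26.4%, or 54.2%), as did clone T (25% and 24.7%, or 49.8%) and KPC1 (30.5% and 28.5%, or 59.0%). Clone V was the line in which all 9 were called, 5 higher and 4 lower (29.4% and 28.9%, or 58.3%). These comparisons share the 4 mono-culture libraries, and the 4 lines with 6 or more of the 9 genes called also had the 4 highest shares over all genes. Without mono-culture replicate 4, or without replicate 1, Nr1d2 and Cry2 were no longer called and the count was 4, and Cry2 was also lost without replicate 2.

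**Figure D2:**
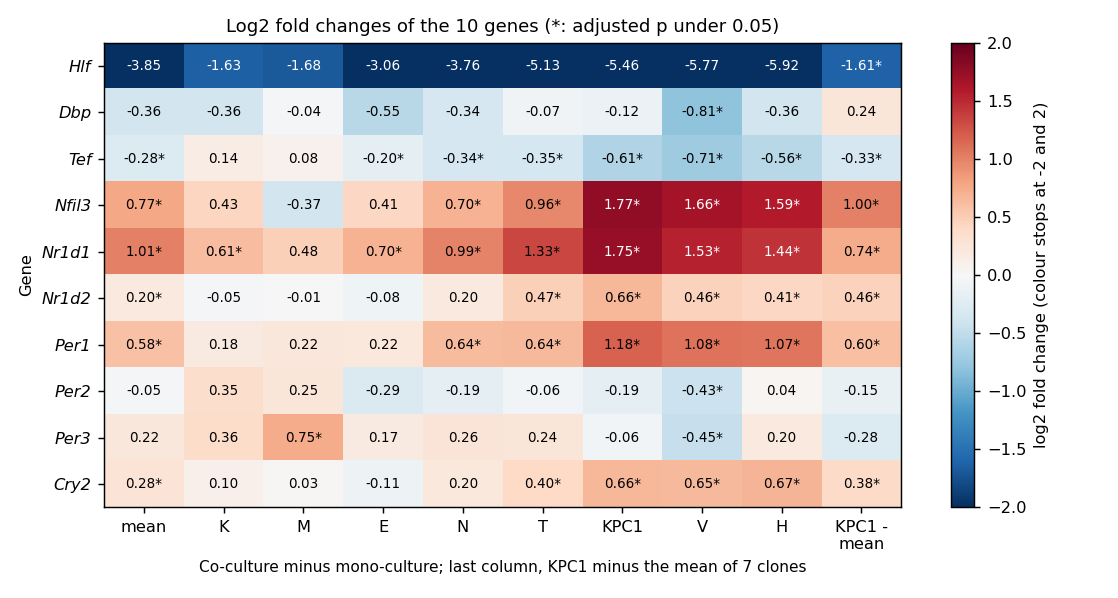
Log2 fold changes of the 10 genes against mono-culture for the mean of 7 clones and each line, with KPC1 against the mean of the clones in the last column. Stars mark adjusted p under 0.05, Hlf carries none against mono-culture because it was picked on that contrast, and its values there run from -1.63 to -5.92.

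Among the PAR bZIP activators, Tef followed nearly the line order of Hlf over a much narrower range, and Dbp did not follow it. Tef held 131, 136, 142 and 148 CPM in mono-culture. The libraries of clone V held 83.7, 82.1, 84.3 and 89.3 CPM, and those of clone K held 132, 153, 166 and 161 CPM. All libraries of clone V lay below mono-culture, and those of clone K overlapped with it. For Tef and the genes below, the share of all genes that lay outside mono-culture in the same way was not counted. Such separations are only described. Tef fell with clone V (log2 fold change -0.71, SE 0.0772, adjusted p = 5.2e-09), KPC1 (-0.61), clone H (-0.56), clone T (-0.35), clone N (-0.34) and clone E (-0.20, adjusted p = 0.044). With clones K and M its log2 fold changes were 0.14 and 0.08 and did not pass. The call with clone E was lost without any of 18 of the 36 libraries. Over the means of the 8 lines, Tef went with Hlf at Pearson's r of 0.96 and Spearman's rho of 0.98 (log2 CPM, each point a mean of 4 libraries, with the library scaling shared by both genes). Over the same 8 means 17.3% of all genes had an r with Hlf over 0.85 and 16.3% under -0.85, so such values were common in these data. Tef was the member with the most pairs of co-cultures called, 20 of 28, with a largest log2 difference of 0.85.

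Dbp, the PAR bZIP gene with the strongest daily rhythm in many tissues, held 29.1, 29, 36 and 27.1 CPM in mono-culture. With clone V it held 9.11, 14.4, 25.2 and 20.5 CPM, all below mono-culture, and it fell there (log2 fold change -0.81, SE 0.223, adjusted p = 0.0025). With clone E all 4 libraries also lay below mono-culture, at 16.4 to 24.5 CPM, but the test did not pass (log2 fold change -0.55, adjusted p = 0.055). For the mean of the clones the log2 fold change was -0.36 (SE 0.162, adjusted p = 0.064). Of the 32 co-culture libraries, 23 lay below the lowest mono-culture library and 0 above the highest. Dbp was called in 3 of 28 pairs of co-cultures, the fewest of the 10 genes. Its exons share 539 bases with Sphk2 on the opposite strand, which was above mono-culture in 29 of 32 co-culture libraries. Whether the authors counted by strand is not given in the sources used here.

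Nfil3, the repressor of the D-box, went opposite to Hlf and Tef. It held 11.9, 13.9, 12.2 and 15.7 CPM in mono-culture. With KPC1 it held 53.5, 74.2, 31 and 25 CPM, with clone V 36.9, 47.9, 52.8 and 33.1 CPM, and with clone H 32.2, 48.4, 51.6 and 30.2 CPM. None of these 12 libraries overlapped with mono-culture. Nfil3 rose with KPC1 (log2 fold change 1.77, SE 0.243, adjusted p = 3.7e-07), clone V (1.66), clone H (1.59), clone T (0.96) and clone N (0.70). With clones K and E its log2 fold changes were 0.43 and 0.41 and did not pass. With clone M it held 9.99, 10.4, 10.9 and 10.4 CPM, all below mono-culture, with a log2 fold change of -0.37 (adjusted p = 0.31). Clone M was the 1 line in which Nfil3 had a lower mean than mono-culture. The call with clone N was lost without clone N replicate 4 or without mono-culture replicate 1.

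**Figure D3:**
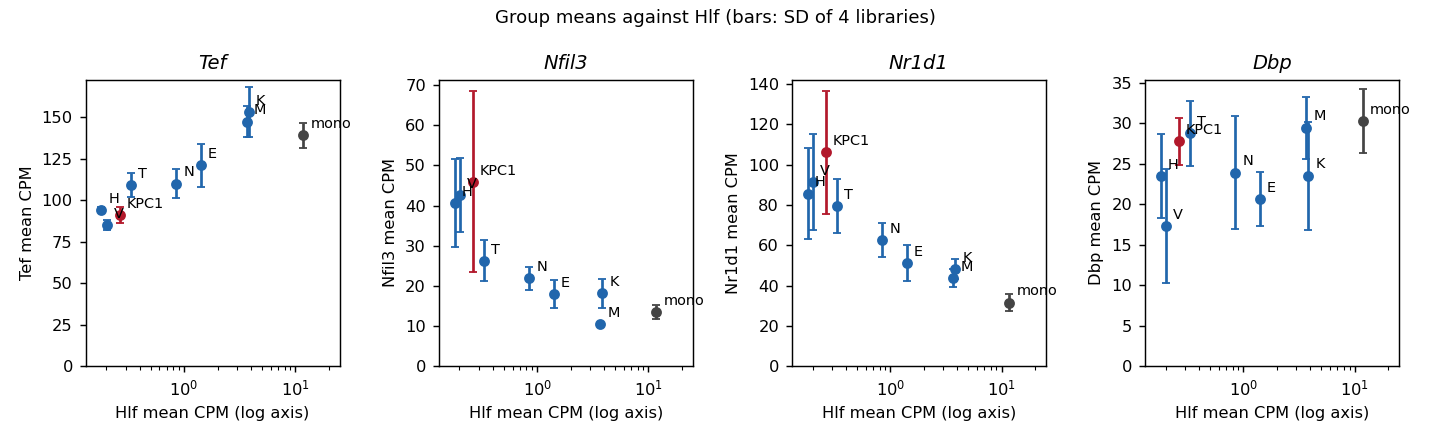
Group means of Tef, Nfil3, Nr1d1 and Dbp (CPM, with the SD of 4 libraries) against the group mean of Hlf on a log axis. Over the 8 lines Tef rises with Hlf (r 0.96), Nfil3 and Nr1d1 fall with it (r -0.91 and -0.94), and Dbp shows little relation (r 0.25).

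Among the REV-ERB genes, Nr1d1 was above mono-culture in 32 of 32 co-culture libraries. The share of all genes that lay outside mono-culture in every co-culture library was not counted. Such a separation, here or for genes named above or below, is therefore only described. Nr1d1 held 25.9, 35.6, 33.9 and 30.8 CPM in mono-culture. With KPC1 it held 126, 138, 85.4 and 74.8 CPM, and with clone M, the lowest line, 43.8, 45.2, 48.5 and 37.9 CPM. The lines thus ran from just above mono-culture to several times its level. For the mean of the clones its log2 fold change was 1.01 (SE 0.155, adjusted p = 3e-06), and the single lines by 1.75 (KPC1), 1.53 (clone V), 1.44 (clone H), 1.33 (clone T), 0.99 (clone N), 0.70 (clone E) and 0.61 (clone K, adjusted p = 0.021). With clone M the log2 fold change of 0.48 did not pass (adjusted p = 0.068). The call with clone K, the 1 member called there, was lost without clone K replicate 3, mono-culture replicate 1 or mono-culture replicate 4. Nr1d1 shares 263 exonic bases with Thra on the opposite strand. Thra held 184 to 196 CPM in mono-culture, and was lower than that in 21 and higher in 9 of the 32 co-culture libraries.

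Nr1d2, which encodes the close relative of Nr1d1, changed less. It held 62.6, 74.3, 70.3 and 64.8 CPM in mono-culture and 106, 129, 95.6 and 100.3 CPM with KPC1, with no overlap. It rose with KPC1 (log2 fold change 0.66, SE 0.0974, adjusted p = 9.3e-07), clone T (0.47), clone V (0.46) and clone H (0.41), and for the mean of the clones by 0.20 (SE 0.0748, adjusted p = 0.026). With clones E, K and M its log2 fold changes lay between -0.08 and -0.01. With clone N it was 0.20 (adjusted p = 0.11).

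The Period genes, which encode repressors of CLOCK and ARNTL, did not move together. Per1 held 36.7, 41.5, 38.4 and 43.6 CPM in mono-culture, and 104, 95.6, 95.2 and 68.7 CPM with KPC1. It rose with KPC1 (log2 fold change 1.18, SE 0.206, adjusted p = 1.3e-05), clone V (1.08), clone H (1.07), clone T (0.64) and clone N (0.64), and with clones E, K and M its log2 fold changes were 0.18 to 0.22 and did not pass. With clone N the call was lost without clone N replicate 4. Per2 held 16.9, 14.0, 16.5 and 18.9 CPM in mono-culture. The libraries of clone V held 10.5, 14.2, 15.7 and 8.74 CPM and overlapped with these. Per2 fell with clone V (log2 fold change -0.43, SE 0.157, adjusted p = 0.019), a call lost without clone V replicate 1, clone V replicate 4 or mono-culture replicate 4, and passed with no other line. Its mean was highest with clone K, 21.2 ± 3.03 CPM against 16.6 ± 1.99 CPM in mono-culture (SD, n = 4 each), which did not pass either (log2 fold change 0.35, adjusted p = 0.11).

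Per3, whose promoter window holds the D-boxes shown above, was called in opposite directions. It held 30.4, 24, 36.7 and 30.9 CPM in mono-culture. With clone M it held 47.2, 47.6, 64.8 and 44.6 CPM, all above mono-culture, and with clone V 18, 21.9, 26.4 and 22.7 CPM, which overlapped with it. Per3 rose with clone M (log2 fold change 0.75, SE 0.159, adjusted p = 0.00076) and fell with clone V (-0.45, SE 0.161, adjusted p = 0.016), and the other 6 lines did not pass. The call with clone V was lost without clone V replicate 1 or mono-culture replicate 3. Among the clones Per3 differed in the F-test (adjusted p = 2e-05).

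Cry2, a cryptochrome that acts with the Period proteins, held 21.6, 19.8, 24 and 20.2 CPM in mono-culture. The libraries of clone H held 34.5, 35.7, 39.8 and 26.4 CPM, and those of KPC1 held 42.4, 32.9, 33.1 and 26.9 CPM. Neither line overlapped with mono-culture. Cry2 rose with clone H (log2 fold change 0.67, SE 0.133, adjusted p = 9e-05), KPC1 (0.66), clone V (0.65) and clone T (0.40). With clones E, K, M and N its log2 fold changes of -0.11 to 0.20 did not pass.

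**Figure D4:**
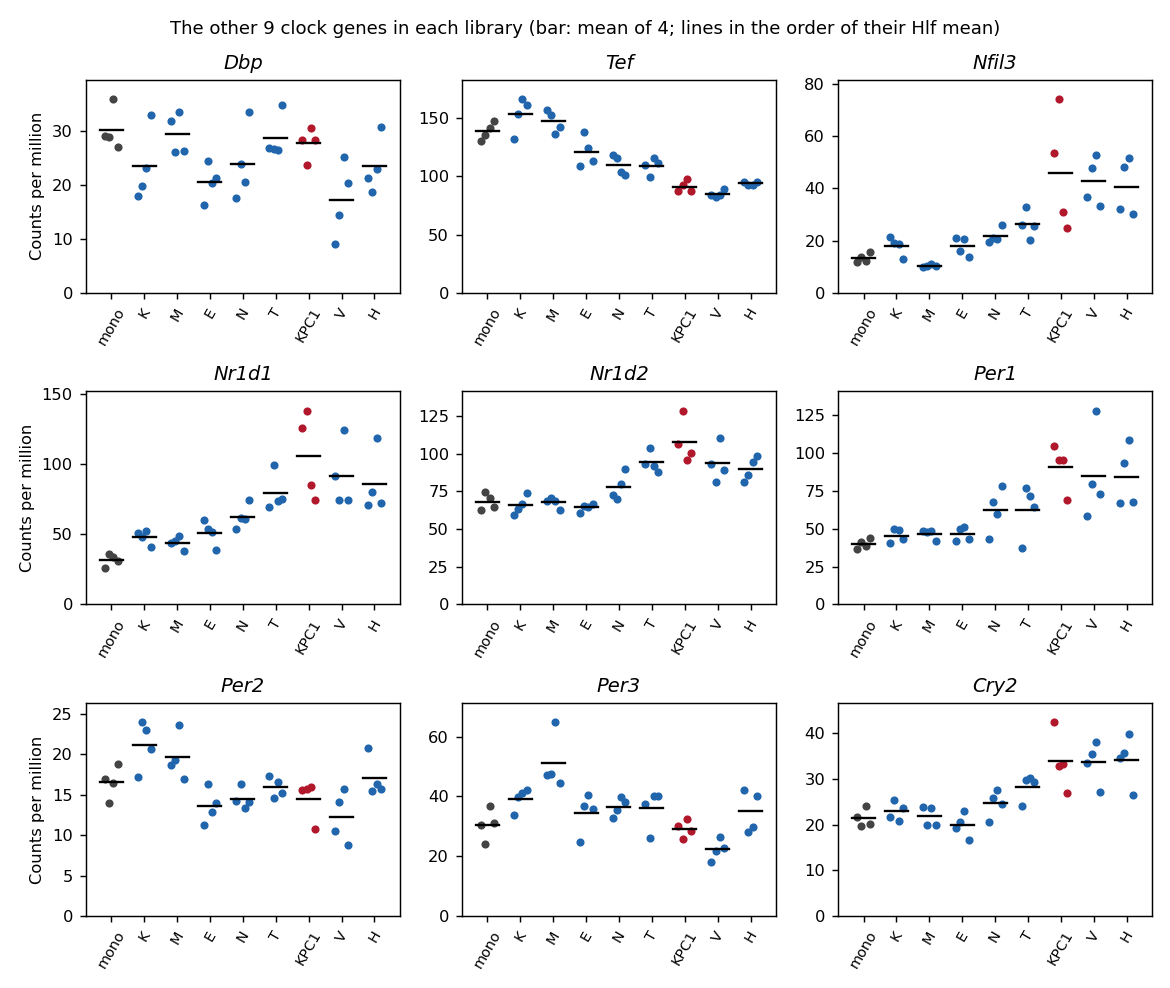
The other 9 genes in each library, in CPM on linear axes from 0, with lines in the order of their Hlf mean and a bar at the mean of 4 libraries. Nr1d1 is above mono-culture in all 32 co-culture libraries, Tef is lowest and Nfil3 highest with KPC1 and clones V and H, and Per3 is highest with clone M and lowest with clone V.

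In the co-cultures alone, all 10 genes differed among the 7 clones in the F-test, where 67.5% of all genes did. Of the 10, 7 differed between KPC1 and the mean of the clones, where 41.1% of all genes did. Nfil3 (log2 difference 1.0, SE 0.163, adjusted p = 2.2e-05), Nr1d1 (0.74), Per1 (0.60), Nr1d2 (0.46) and Cry2 (0.38) were higher with KPC1, and Hlf (-1.61) and Tef (-0.33) were lower. Without KPC1 replicate 1, Cry2 was no longer called (0.25, adjusted p = 0.0675 by edgeR). Dbp (0.24), Per2 (-0.15) and Per3 (-0.28, adjusted p = 0.067) did not pass. Clones H, T and V and KPC1 were the lines with the lowest Hlf. They also had the 4 highest means of log2 CPM for Nfil3, Nr1d1, Nr1d2 and Cry2 and the 4 lowest for Tef. By mean CPM, Per1 was also highest in these 4 lines, narrowly, at 62.6 CPM with clone T and 62.3 CPM with clone N. This division of the lines was common: 19.1% of all genes had their 4 highest and 20.9% their 4 lowest means in those lines. Within groups, over the 36 libraries with group means removed, r with Hlf lay between -0.18 and 0.23 for the other 9 genes.

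The other genes of the loop were taken as a list of 16, of which 15 were tested. For the mean of the clones 8 were higher and 2 lower, where 24.3% and 24.9% of all genes were, and the 15 had a median of 0.28 on the log2 scale, against 0.0058 over all genes. Arntl and Clock encode the activators of the loop, and Arntl was above mono-culture in 32 of 32 co-culture libraries (16.3 to 46.0 CPM against 11.9 to 14.2 CPM). Its log2 fold change for the mean of the clones was 0.96 (SE 0.155, adjusted p = 6.4e-06), and it passed with each line but clone M (0.37, adjusted p = 0.17). Arntl and Nr1d1, whose product is a repressor of Arntl, thus both rose. Clock rose by 0.43 (adjusted p = 0.00048), Cry1, a second cryptochrome, by 0.42 (adjusted p = 0.0054), and Ciart, a repressor of CLOCK and ARNTL, by 0.59 (adjusted p = 0.011). Ciart fell with clone M (-0.91, adjusted p = 0.01) and rose with clone V (1.73, adjusted p = 4.9e-07). Csnk1e, which encodes the kinase casein kinase 1 epsilon that acts on PER proteins, rose by 0.66 (adjusted p = 1.6e-07) and was above mono-culture in 32 of 32 libraries, as was Rorb (1.0, adjusted p = 2.5e-06), an activator at the ROR element. Fbxl21, which encodes an F-box protein that controls the turnover of CRY proteins, fell (-1.12, adjusted p = 0.00038). Among the 7 clones, 14 of the 15 differed, as did 67.5% of all genes.

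Known outputs of the clock and of PAR bZIP factors were taken as a list of 7. For the mean of the clones 2 rose, 3 fell and 2 did not pass, where 24.3% of all genes rose and 24.9% fell, and the median was -0.21. Pdxk, the pyridoxal kinase gene and a target of the PAR bZIP factors in liver and brain, fell by 0.47 on the log2 scale (SE 0.0642, adjusted p = 5.1e-07) and was below mono-culture in 32 of 32 co-culture libraries (33.1 to 57.5 CPM against 59.0 to 66.8 CPM). Its fall was largest with clone K (-0.81), a line with a high level of Hlf, and smallest with clone H (-0.25), the line with the lowest. The relation of Pdxk and the other outputs to Hlf over the lines was not tested. Por, which encodes the electron donor of cytochrome P450 enzymes and is another target in liver, was above mono-culture in 32 of 32 libraries (log2 fold change 0.71, SE 0.110, adjusted p = 3.6e-06). Usp2 rose (0.40) and Nampt (-0.34) and Alas1 (-0.21) fell, while Wee1 and Nr1i3 did not pass. Nampt fell in co-culture with E, K, M and N (-0.50 to -1.02) and rose with H (0.37) and V (0.36).

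Glucocorticoid response genes were listed because glucocorticoids raise Per1 and set the phase of clocks outside the brain. Of the 6 listed, Zbtb16 was at 0 counts in 35 of 36 libraries and was not tested. Of the 5 tested, 4 rose for the mean of the clones, where 24.3% of all genes did. In the single lines, 1 rose with clone M (12.2% of all genes), and 2 with clones E (16.5%), K (10.4%) and V (29.4%). With clone N 3 rose (19.7%), and 4 with clones H (27.8%) and T (25%) and KPC1 (30.5%). Klf9, a glucocorticoid-induced and clock-controlled transcription factor gene, held 12.4 to 13.5 CPM in mono-culture and 21.5 to 74.2 CPM in co-culture, above mono-culture in 32 of 32 libraries (log2 fold change 1.79, SE 0.120, adjusted p = 4.6e-13). Tsc22d3 rose by 0.43, Sgk1 by 0.96 and Fkbp5 by 0.23, and Dusp1 (-0.18) did not pass. Of the 8 proliferation genes, 3 rose in co-culture with H (27.8% of all genes), 4 in co-culture with V (29.4%) and 2 with KPC1 (30.5%), and 2 fell with clone K (8.69%).

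**Figure D5:**
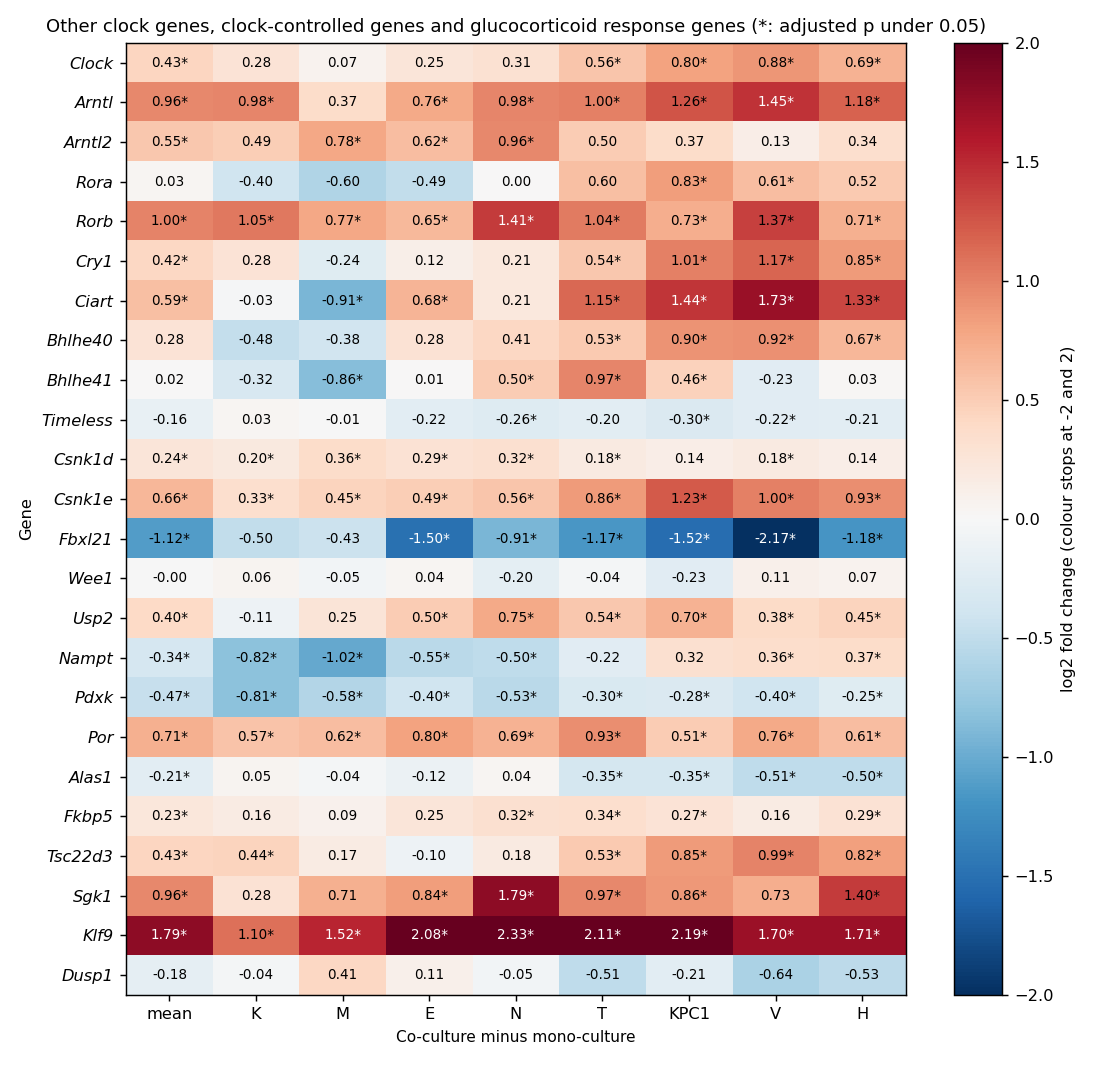
Log2 fold changes against mono-culture of the listed genes outside the 10, for the mean of 7 clones and each line in the order of its Hlf mean, with stars at adjusted p under 0.05. Klf9 is starred in all 9 columns, Arntl in all but clone M, and Ciart is negative with clone M (-0.91) and 1.73 with clone V. The plot leaves out a few of the listed genes, among them Nr1i3, which had libraries with 3 or fewer counts.

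Over the 36 libraries, the genes whose log2 CPM went most closely with Hlf, of 11685 genes with a mean of at least 2 CPM, were Ebf3 (r 0.94), Kdelc2 (0.94), 6430548M08Rik (0.93), Rassf2 (0.93) and Mmp16 (0.93). These values carry the difference between mono-culture and co-culture that Hlf was picked for. Ebf3, a transcription factor gene, held 93.7 ± 6.19 CPM in mono-culture (SD, n = 4) and 19.1 to 58.5 CPM in co-culture. Mmp16, which encodes a membrane-bound matrix metalloproteinase, held 67.3 ± 4.71 CPM and 7.17 to 52.0 CPM. With the group means removed, the closest genes were Negr1 (r 0.75), Armcx2 (0.75), Ikzf4 (0.75), Mon1a (0.73) and Ppip5k1 (0.71). These are the highest of 11685 values and were not tested. Hlf held at most 11 counts in any library of clones H, T and V and KPC1. Replicate number went with 31.4% of its variance within the co-culture lines. Both limits also hold for the within-group r of the other clock genes given above. The clock members themselves were left out of both rankings, so they could not appear in them. The 5 genes of the first set and the 5 of the second were different, and none belonged to the other clock lists.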

How the data were processed

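Fibroblast RNA was measured by poly(A)-selected, strand-specific RNA-seq in 9 groups of 4 libraries. The authors deposited unscaled read counts, whole numbers for 39017 genes, and RPKM values for 37746 of them. RPKM followed counts, gene length and library total, with no further scaling. The submitters' processing notes name STAR, featureCounts, edgeR and mm10; versions and the strand setting are not given in the sources used here.

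The count test was run in edgeR 4.0.16 (R 4.3.3): filterByExpr (14439 genes), TMM, estimateDisp, glmQLFit (robust) and glmQLFTest on the 36 libraries, adjusted by Benjamini-Hochberg over all genes tested, at 0.05. Contrasts compared each line, or the mean of the 7 clones, with mono-culture, KPC1 with that mean, and all pairs of co-cultures; differences among clones were tested by F-test. Standard errors came from the fold change and F. TMM-scaled CPM is printed, and its log2 had a prior count of 1. Library totals were 12532122 to 21985538 counts, and intervals and the floor of 3 counts cover counting error only, since PCR reads are not independent molecules. Library pairs within groups differed beyond sampling noise (smallest chi-square per degree of freedom 5.53), more than reading 1 library again would give. Each counted as 1 sample, though this does not show that they came from separate cultures.

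The members and lists were chosen with earlier results of these data known. Named genes were the 10 members, the listed genes, and the 5 genes with the highest r to Hlf over the 36 libraries, with and without group means, at a mean of at least 2 CPM. Overlapping genes (Thra, Sphk2) and the 4 lines with the lowest Hlf were singled out after values were seen. Alternatives were DESeq2 1.42.0, RLE, no scaling, no filter, a minimum of 10 counts per library, a threshold of 0.1, a replicate block, limma-trend 3.58.1 on log2(RPKM + 1) or log2(RPKM + 0.1), fits of only the groups compared, and leaving out each library. The procedure was tested on simulated data. Some listed genes enter the counts of their list but are not reported here by name.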

Additional observations from a re-analysis of the deposited data

Results flagged for a closer look

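Each of the 10 genes differed among the 7 clonal co-cultures, which share no library with each other, in the edgeR F-test on 6 contrasts. The same test called 67.5% of all genes. The adjusted p was 5.2e-10 for Hlf, 1.6e-10 for Tef, 1e-07 for Nfil3, 1.4e-06 for Nr1d2, 7.5e-06 for Cry2, 9.5e-06 for Nr1d1, 2e-05 for Per3, 0.00014 for Per1, 0.00034 for Per2 and 0.039 for Dbp. The value for Dbp passed 0.05 by the least, and did not pass without any of 9 of the 36 libraries.

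In 6 of the 90 sets of 4 libraries (10 genes in 9 groups) 1 library stood far from the other 3, by a gap above Dixon's limit for 4 values. Chance gives about 4.5 such sets. In Dbp with clone T the gap was 0.9565 of the range, with replicate 4 at 34.8 CPM and the others at 26.6 to 27 CPM. In Per2 with KPC1 it was 0.943, with replicate 4 at 10.7 CPM and the others at 15.7 to 16 CPM. In Per1 with clone M it was 0.881, with replicate 4 at 42.0 CPM and the others at 47.9 to 48.6 CPM. In Cry2 with clone T it was 0.8732, with replicate 1 at 24.1 CPM and the others at 29.3 to 30.1 CPM. In Per3 with clone M it was 0.8517, with replicate 3 at 64.8 CPM and the others at 44.6 to 47.6 CPM. In Per2 with clone H it was 0.8397, with replicate 1 at 20.8 CPM and the others at 15.5 to 16.4 CPM.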

How the results depend on the processing

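No result changed direction while called under the alternatives run. The count of other members called for the mean of the clones (6) stayed at 5 to 7 under the 10 alternatives and at 4 to 7 with 1 library left out. The count with clone E (2) was 1 without the filter on low counts, 2 with RLE scaling and 3 under the other 8 alternatives, 7 of which called Dbp, Nr1d1 and Tef. The count with clone K (1) was 2 with the replicate block and 2 with only the groups compared, where Per3 was also called higher (edgeR adjusted p = 0.0458 and 0.0464). The count with clone M (1) was 2 with the replicate block, 4 with only the groups compared and 2 at an adjusted p of 0.1. With 1 library left out, the counts were 1 to 3 with clone E, 0 to 1 with clone K, 1 to 2 with clone M (2 without KPC1 replicate 4), 2 to 4 with clone N (2 without clone N replicate 4) and 7 to 9 with clone V, and stayed at 6 with clones H and T and KPC1. Pairs in which Hlf was called numbered 17 to 19 with 1 library left out and 15 to 20 under the other alternatives.

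Dbp for the mean of the clones was called under 6 of 10 alternatives (adjusted p = 0.021 with the replicate block in edgeR, 0.0372 without scaling), and with clone E under 8. Per3 was called lower with KPC1 than with the mean of the clones under 4 of 10 alternatives (adjusted p = 0.0323 with the replicate block in edgeR, 0.0499 with at least 10 counts in every library, 0.0491 by DESeq2, and at a threshold of 0.1). Nr1d2 and Cry2 for the mean of the clones were not called without scaling (adjusted p = 0.146 and 0.0718 by edgeR) or by limma-trend (0.149, and 0.0717 to 0.0724). Without scaling the share of higher calls for the mean of the clones fell from 49.4% to 40.4% over all genes. The fitted fold change of Hlf rests on the prior count or pseudocount: for the mean of the clones it was -3.03 on log2(RPKM + 0.1) and -1.35 on log2(RPKM + 1). The cause of the other changes was not tested. Counts limit Hlf: 6 of the 32 co-culture libraries held 3 or fewer.

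The labels do not say that a replicate number marks a shared batch. Between co-cultures, deviations from group means correlated above r 0.1 in 63 of 112 pairs with the same number (median 0.143). Pairs with other numbers did so in 89 of 336 (median -0.0436). Same-numbered libraries thus went together more often between co-cultures. With mono-culture, same-numbered pairs did so in only 5 of 32 (median -0.0233). The replicate block was therefore an alternative only, and it raised the calls over all genes for the mean of the clones from 7108 to 7685. Of the 32 co-culture libraries, 23 correlated best with their own number. Replicate 2 held the highest Hlf in 7 of 8 lines, and replicate 4 the lowest Arntl in 7 of 8.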
